A study of Rattus norvegicus with 3 samples.

Results

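Transcripts of 41 antioxidant, glutathione and metallothionein genes were compared between the kidney inner medulla of lithium-treated rats and that of control rats. The genes were taken by symbol from the array's probe annotation: the glutathione transferases, glutathione peroxidases, peroxiredoxins, superoxide dismutases, thioredoxin genes, metallothioneins, glutamate-cysteine ligase subunits and heme oxygenases, together with Mgst1, Cat, Gsr, Gss, Nqo1 and Ggt1. They made up 41 of 4390 named genes and 54 of 5760 probes, and 37 of the 41 had a value on all 3 arrays and were tested.

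Lithium-treated rats had received lithium for 1 month, and the control rats were described only as controls. Their strain, sex, age and lithium dose are not given in the sources used here. Total RNA of the treated rats was labelled red (channel 1) and that of the controls green (channel 2) on each of 3 arrays, with RNA of 2 rats per channel on arrays 1 and 2 and of 1 rat per channel on array 3. The deposited values are log ratios of the 2 channels with no stated base, so a fold is given both for base 10 and for base 2. A positive value was taken to mean more transcript with lithium; the channel order makes this likely, but the table does not say so. Aqp2, the water channel that lithium is known to lower, had log ratios of 0.11, 0.26 and 0.14 on the 3 arrays (adjusted p = 0.153), which leaves this direction in doubt. If the ratio runs the other way, every sign and rank below turns over: Gsta1 would be the lowest of the tested genes at −0.14 (0.730-fold in base 10, 0.910-fold in base 2) and Hmox2 the highest at 0.12 (1.32-fold and 1.09-fold). No array had the dyes swapped, so lithium and dye cannot be told apart for any gene. The table holds ratios and no levels, so the labelled tissue could not be checked against its defining markers, and fewer cells of a type cannot be told apart from less RNA per cell.

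These genes form the main defence against reactive oxygen. Superoxide dismutases turn superoxide into hydrogen peroxide, which catalase, glutathione peroxidases and peroxiredoxins remove, and the last 2 of these draw their electrons from glutathione and thioredoxin. Glutathione is made by glutamate-cysteine ligase and glutathione synthetase, and the glutathione transferases attach it to reactive compounds. Many of these genes are known targets of the transcription factor Nrf2 (Nfe2l2), while metallothioneins are small cysteine-rich proteins that bind zinc and copper. The inner medulla, where the collecting duct concentrates urine, is hypertonic and poorly oxygenated, and lithium is known to make the collecting duct respond poorly to vasopressin.

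No antioxidant gene passed the test between lithium-treated and control medulla. None of the 37 reached an adjusted p of 0.05 (limma, Benjamini-Hochberg over all 3819 tested features), against 0.445% of all tested features (0.236% on the higher and 0.209% on the lower side). By unadjusted p at 0.05, 4 of the 37 passed, Gsta1, Gsta3, Txn2 and Mt3, each higher with lithium. That is 10.8% of the 37, beside 17.2% of all tested features in either direction and 9.71% on the higher side. None of the 37 passed on the lower side, where 7.52% of all tested features did. These calls moved with the centring, which is not known for the deposited values. Without any centring Gss passed on the lower side (unadjusted p = 0.0416), as did 10.9% of all features, and Mt3 did not pass (unadjusted p = 0.103). That again made 4 of the 37, beside 17.0% of all features, and centring on the features with 3 values gave the same 4 genes, with 10.1% of all features on the lower side. Centring within each printing block gave 8, with Gpx1, Gsta1, Gsta3, Prdx1 and Txn2 higher and Gpx4, Gss and Sod3 lower, or 21.6% against 20.2% of all features (8.85% on the lower side). By this unadjusted rule Gsta1 passed under 11 of 12 alternatives, Gsta3 and Txn2 under 10 each and Mt3 under 3. The alternatives reuse the same 3 arrays and are not independent tests. Over them the share of all features that passed ran from 4.5% without array 1 to 41.6% with arrays weighted by limma. Without array 1 none of the 37 passed. The mean log ratios of the 37 ran from −0.12 for Hmox2 to 0.14 for Gsta1, with a median of 0.02, and the median over all tested features was 0.01. In base 10 these extremes are ratios of 0.759 and 1.37, and in base 2 they are 0.920 and 1.10.

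Ratios with the same sign on all 3 arrays were found for 16 of the 37 genes, 10 higher and 6 lower. The share of 43.2% stands beside 38.7% of all tested features, and the shares of 27.0% higher and 16.2% lower beside 24.1% and 14.6%. This balance also moved with the centring. Without centring, or centred on the features with 3 values, 6 genes were above 0 on all arrays (Gclm, Gsta1, Gsta3, Mt3, Prdx6 and Txn2) and 8 below, and the shares of all features were 17.4% and 20.1% without centring, and 18.8% and 19.3% centred on the features with 3 values. Centred per printing block, 14 were above 0 and 5 below, beside 25.3% and 15.5% of all features. Only when arrays were weighted by limma did any of the 37 pass the adjusted threshold, 8 of them or 21.6%, against 27.6% of all tested features. None of the 37 lay outside the central 95% of all tested means, which spanned −0.19 to 0.15, and none had a mean beyond 0.2 in size, as 2.93% of all tested features did. The 95% confidence intervals of the means reached from 0.0907 to 0.158 on either side, so means closer to 0 than this could not be told from 0 with 3 arrays. A p above the threshold does not show that a transcript was the same in lithium-treated and control medulla. Across the 37 genes the ratios of arrays 1 and 2 had a Pearson r of 0.48, those of arrays 1 and 3 an r of 0.43 and those of arrays 2 and 3 an r of 0.03. Over the 3819 features these were 0.46, 0.48 and 0.16, and arrays share the same probes and dye orientation.

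**Figure D1:**
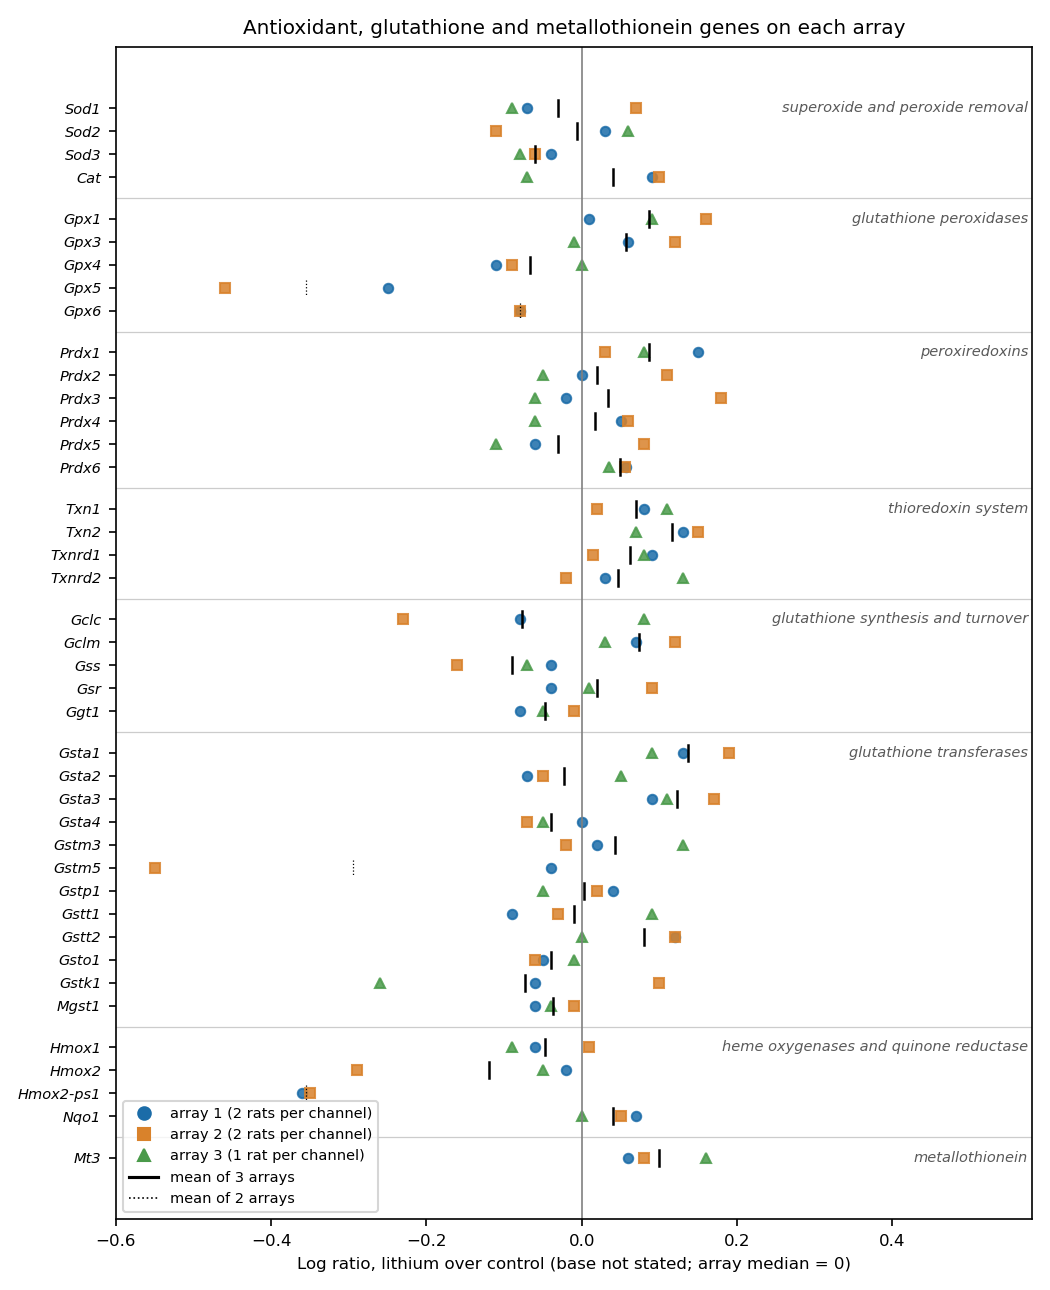
Log ratio of lithium over control (base not stated, array median at 0) for each of the 41 genes on each array, grouped by role, with the mean as a black tick. The same sign on all 3 arrays is seen for 16 of the 37 tested genes, beside 38.7% of all tested features. The 4 thioredoxin system genes have means above 0, as do 55.7% of all tested features. The 4 genes with a value on arrays 1 and 2 alone lie below 0.

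Enzymes that remove superoxide and peroxide had mean log ratios close to 0. Sod1, the cytosolic copper-zinc superoxide dismutase, had log ratios of −0.07, 0.07 and −0.09 on arrays 1, 2 and 3, with a mean of −0.03 ± 0.09 (SD, n = 3, as for every mean below; adjusted p = 0.783). Sod2, the mitochondrial manganese enzyme, read 0.03, −0.11 and 0.06, a mean of −0.0067 ± 0.09 (adjusted p = 0.954). Array 2 stood apart from the other arrays for both, above them for Sod1 and below them for Sod2. Sod3, the secreted enzyme of the extracellular matrix, read −0.04, −0.06 and −0.08, a mean of −0.06 ± 0.02 (adjusted p = 0.461), and was below 0 on every array. Cat, the peroxisomal catalase, read 0.09, 0.10 and −0.07, with a mean of 0.04 ± 0.10 (adjusted p = 0.711). Its ratio was above 0 on the arrays of pooled rats and below 0 on the array of single rats.

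Glutathione peroxidases, several of which carry selenium at their active site, did not share a direction. Gpx1, the abundant cytosolic form, had log ratios of 0.01, 0.16 and 0.09, a mean of 0.09 ± 0.08 (adjusted p = 0.366). Gpx3, the plasma form that the kidney secretes, read 0.06, 0.12 and −0.01, a mean of 0.06 ± 0.07 (adjusted p = 0.54). Gpx4, which reduces lipid peroxides within membranes, read −0.11, −0.09 and 0.00, a mean of −0.07 ± 0.06 (adjusted p = 0.455). Gpx1 thus lay above Gpx4 on each array, by 0.12, 0.25 and 0.09 log units. The mean difference was 0.15 ± 0.09 and was not tested. Gpx5, an epididymal form, and Gpx6, known from olfactory tissue, had no value on array 3.

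Peroxiredoxins, which reduce hydrogen peroxide through a reactive cysteine, had 5 of 6 means above 0, beside 55.7% of all tested features. Their median was 0.03. Without centring the mean of Prdx2 was 0.00 and that of Prdx4 was −0.0033. Prdx1, a cytosolic form and known Nrf2 target, read 0.15, 0.03 and 0.08, a mean of 0.09 ± 0.06 (adjusted p = 0.349), and was above 0 on all arrays. Without centring Prdx1 read −0.01 on array 2. Prdx2, the form abundant in red blood cells, read 0.00, 0.11 and −0.05, a mean of 0.02 ± 0.08 (adjusted p = 0.86). The mitochondrial Prdx3 read −0.02, 0.18 and −0.06, a mean of 0.03 ± 0.13 (adjusted p = 0.795), and its mean was set by array 2. Prdx4, of the endoplasmic reticulum, had a mean of 0.02 ± 0.07 (adjusted p = 0.878). Prdx5, found in mitochondria, peroxisomes and cytosol, read −0.06, 0.08 and −0.11, a mean of −0.03 ± 0.10 (adjusted p = 0.792). In Prdx2, Prdx3, Prdx4 and Prdx5 alike, array 2 gave the highest ratio and array 3 the lowest.

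Prdx6, the peroxiredoxin with a single reactive cysteine and phospholipase activity, was spotted 13 times. Of these spots 12 lay at corners of the blocks numbered 6.1 to 6.4, and the other lay in block 8.3. They showed how far spots of the same gene spread on 1 array at these positions, which may differ from other parts of the array. Over its 13 spots array 1 gave log ratios from −0.02 to 0.15, with a median of 0.05 and an SD between spots of 0.05. Array 2 gave −0.07 to 0.18, with a median of 0.06 and an SD of 0.07, and array 3 gave −0.07 to 0.14, with a median of 0.03 and an SD of 0.06. The means over the spots were 0.06, 0.06 and 0.03 on arrays 1, 2 and 3. The gene mean was 0.05 (adjusted p = 0.551), and 7 of the 13 spots were above 0 on all 3 arrays. Of the tested genes 35 had a single probe, so the spread between spots is not known for them.

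**Figure D2:**
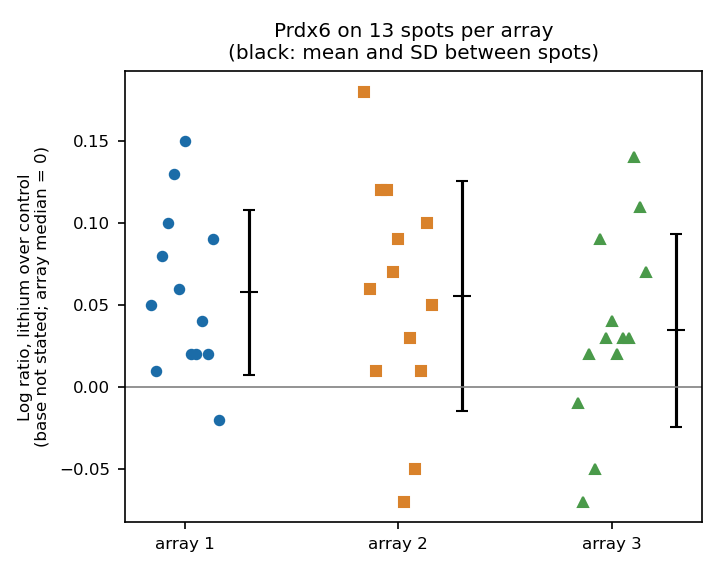
Log ratio of lithium over control (base not stated, array median at 0) of Prdx6 on each of its 13 spots per array, with the mean and SD between spots in black. Spots on 1 array range over 0.17 to 0.25 log units, and the means over 13 spots lie between 0.03 and 0.06.

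The thioredoxin system, which returns electrons from NADPH to peroxiredoxins and other thiol proteins, was the role group of more than 1 gene in which every mean lay above 0. Its 4 genes had a median log ratio of 0.07, and 55.7% of all tested features had means above 0. On every array 3 of the 4 were above 0, beside 24.1% of all tested features. Without centring, or centred on the features with 3 values, this held for Txn2 alone, beside 17.4% and 18.8% of all features. Txn2, the mitochondrial thioredoxin, read 0.13, 0.15 and 0.07, a mean of 0.12 ± 0.04 or 1.31-fold (base 10) and 1.08-fold (base 2) (unadjusted p = 0.0228, adjusted p = 0.215). Txn1, its cytosolic counterpart, read 0.08, 0.02 and 0.11, a mean of 0.07 ± 0.05 (adjusted p = 0.409). Txnrd1, the cytosolic selenoprotein that reduces thioredoxin, read 0.09, 0.02 and 0.08 as the mean of 2 probes, giving 0.06 ± 0.04 (adjusted p = 0.464). Its probes read 0.12 and 0.06 on array 1, 0.05 and −0.02 on array 2, and 0.02 and 0.14 on array 3. The mitochondrial reductase Txnrd2 read 0.03, −0.02 and 0.13, a mean of 0.05 ± 0.08 (adjusted p = 0.63). None of the 4 passed, and the group was singled out after its values were seen.

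Genes of glutathione synthesis and turnover divided between higher and lower ratios. Gclc, the catalytic subunit of the rate-limiting ligase, read −0.08, −0.23 and 0.08, a mean of −0.08 ± 0.15 (adjusted p = 0.555). Gclm, its modifier subunit, read 0.07, 0.12 and 0.03, a mean of 0.07 ± 0.05 (adjusted p = 0.394). The modifier was above the catalytic subunit by 0.15 and 0.35 log units on arrays 1 and 2 and below it by 0.05 on array 3, so the arrays did not share a direction for the difference. Gss, which adds glycine in the second step, read −0.04, −0.16 and −0.07, a mean of −0.09 ± 0.06 (unadjusted p = 0.0727, adjusted p = 0.335). Ggt1, the cell-surface enzyme that splits extracellular glutathione, read −0.08, −0.01 and −0.05, a mean of −0.05 ± 0.04 (adjusted p = 0.58). Both lay below 0 on every array. Gsr, which regenerates reduced glutathione from the oxidised form, read −0.04, 0.09 and 0.01, a mean of 0.02 ± 0.07 (adjusted p = 0.844).

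Among the 37 genes the highest mean ratios of lithium over control, in the direction taken here, were those of the alpha-class transferases Gsta1 and Gsta3. Gsta1 read 0.13, 0.19 and 0.09, a mean of 0.14 ± 0.05, equal to 1.37-fold in base 10 and 1.10-fold in base 2 (unadjusted p = 0.0125, adjusted p = 0.177). Gsta3 read 0.09, 0.17 and 0.11, a mean of 0.12 ± 0.04, or 1.33-fold in base 10 and 1.09-fold in base 2 (unadjusted p = 0.018, adjusted p = 0.195). Among all 3819 features Gsta1 ranked 138 and Gsta3 ranked 210 from the highest mean. The other alpha-class genes did not share this: Gsta2 read −0.07, −0.05 and 0.05 (mean −0.02 ± 0.06), and Gsta4, which handles lipid aldehydes, read 0.00, −0.07 and −0.05 (mean −0.04 ± 0.04). Gsta1 exceeded Gsta2 by 0.20, 0.24 and 0.04 log units on the 3 arrays, and Gsta3 exceeded it by 0.16, 0.22 and 0.06. These differences were not tested. Gsta1 and Gsta3 encode close relatives whose names have been exchanged in older annotation, so the probe of each may also bind the other's transcript, and their values may not be separate measurements.

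None of the remaining transferases passed. Gstp1, the pi-class enzyme of many epithelia, read 0.04, 0.02 and −0.05, a mean of 0.0033 ± 0.05 (adjusted p = 0.973), the mean nearest to 0 among the 37. The mu-class Gstm3 had a mean of 0.04 ± 0.08, and the theta-class gene Gstt1 had a mean of −0.01 ± 0.09. Gstt2, also of the theta class, read 0.12, 0.12 and 0.00, a mean of 0.08 ± 0.07, and was among the 8 genes that passed with array weights. Gsto1, of the omega class, read −0.05, −0.06 and −0.01, a mean of −0.04 ± 0.03 (adjusted p = 0.638), and the membrane-bound Mgst1 read −0.06, −0.01 and −0.04, a mean of −0.04 ± 0.03 (adjusted p = 0.669). Both were below 0 on every array. Gstk1, the kappa-class enzyme of mitochondria and peroxisomes, was the most variable of the 37, at −0.06, 0.10 and −0.26 on the 3 arrays (mean −0.07 ± 0.18, adjusted p = 0.608). In all, 5 of the 11 tested transferases had means above 0 and 6 below, with a median of −0.01.

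The promoters of Gsta1 and Gsta3 are shown because these genes had the highest ratios and are close copies. Sequences are those of RefSeq on build GRCr8, which held a promoter for 34 of the 41 genes. For Gsta3, which has 2 annotated starts there, the start with the match is used. Each line gives the 250 bases before the annotated start, 5′ to 3′ on the gene's strand, in lower case, with any match to the core of the antioxidant response element, TGACNNNGC on either strand, in capitals.
Gsta1 (chr9:31216533-31216782, minus strand): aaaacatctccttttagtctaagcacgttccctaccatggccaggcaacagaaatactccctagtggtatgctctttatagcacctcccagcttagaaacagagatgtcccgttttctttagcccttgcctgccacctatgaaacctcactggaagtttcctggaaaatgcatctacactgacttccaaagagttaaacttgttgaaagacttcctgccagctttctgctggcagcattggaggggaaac
Gsta3 (chr9:31154739-31154988, plus strand): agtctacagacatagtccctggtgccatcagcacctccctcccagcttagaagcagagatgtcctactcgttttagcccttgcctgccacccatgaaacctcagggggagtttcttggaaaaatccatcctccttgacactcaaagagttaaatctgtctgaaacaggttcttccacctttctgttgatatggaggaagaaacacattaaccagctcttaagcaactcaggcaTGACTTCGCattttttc

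These 2 windows, each with the 50 bases after its start, aligned over 243 ungapped positions, of which 81.1% were identical. The Gsta1 window has its match after the annotated start instead of before it, at position 30 where the start is 0. In the alignment Gsta1 from −208 to 44 paired with Gsta3 from −250 to −3, so the annotated starts of the copies lie at different places in the shared sequence. The 30 bases around each match are:
Gsta1 (chr9:31216483-31216512, minus strand): aactcaggcaTGACTTTGCatttttcttct
Gsta3 (chr9:31154962-31154991, plus strand): aactcaggcaTGACTTCGCattttttccta

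Upstream of the start, 8 of the 34 genes with a promoter held this core, or 23.5%, against 11.0% of the 27457 genes in the promoter table. Of the 8, 7 were tested, and their mean log ratios ran from −0.12 to 0.12 with a median of 0.06 and 5 above 0. The 24 tested genes with a promoter but no upstream match ran from −0.09 to 0.14, with a median of 0.02 and 13 above 0. Among these 24, Gsta1, Gsta2, Prdx4 and Prdx5 held the core across or after the start, at positions 30, 36, 19 and −1. The split thus depends on the annotated starts. In the full window of 300 bases 12 of the 34 genes held the core, against 13.1% of all genes. Besides Gsta3, the upstream matches of the other 7 of the 8 genes are shown in the order of their mean ratios, highest first. Gstm5, which lacked a value on array 3, has 2. Where the core lies on the opposite strand its letters appear as their reverse complement.
Prdx1 (chr5:135383761-135383790, plus strand): cagggaaagcGCTGAGTCAtaccccgccgg
Gclm (chr2:213031953-213031982, plus strand): tgcggtttctGCTTAGTCAttgtcttccag
Txnrd1 (chr7:22755963-22755992, minus strand): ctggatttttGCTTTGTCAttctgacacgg
Gstp1 (chr1:210769747-210769776, minus strand): tccactgtgtTGACTCAGCatccggggcgg
Sod2 (chr1:50050184-50050213, minus strand): ggcgctgccgGCAGGGTCAgcgcctagctg
Hmox2 (chr10:11337688-11337717, minus strand): gtcttggaagGCAGTGTCAgcttggccagg
Gstm5 (chr2:198219646-198219675, plus strand): caaggccaagTGACCACGCggagggcgggt
Gstm5 (chr2:198219706-198219735, plus strand): tcagtcgcgtTGACCCCGCccacagcgtcc

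A match to these letters is a description of the window and shows neither binding nor use of the site. The mean ratios of the 6 tested genes among these 7 were 0.09 for Prdx1, 0.07 for Gclm, 0.06 for Txnrd1, 0.0033 for Gstp1, −0.0067 for Sod2 and −0.12 for Hmox2, and that of Gstm5 on arrays 1 and 2 was −0.295.

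Heme oxygenases and the quinone reductase Nqo1, inducible targets of Nrf2 in the case of Hmox1 and Nqo1, did not pass either. Hmox1, the inducible enzyme that degrades heme, read −0.06, 0.01 and −0.09, a mean of −0.05 ± 0.05 (adjusted p = 0.596). Hmox2, the constitutive form, read −0.02, −0.29 and −0.05, a mean of −0.12 ± 0.15 (unadjusted p = 0.0816, adjusted p = 0.352). In the direction taken here it had the lowest mean of the 37 and was below 0 on every array, but arrays 1 and 3 stood close to 0 and array 2 carried most of the mean. Nqo1, which reduces quinones with NADPH, read 0.07, 0.05 and 0.00, a mean of 0.04 ± 0.04 (adjusted p = 0.645). The pseudogene Hmox2-ps1 resembles Hmox2, so a probe of either may bind the other's transcript.

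Mt3 was the only metallothionein measured here, a form best known from brain. It read 0.06, 0.08 and 0.16, a mean of 0.10 ± 0.05, equal to 1.26-fold in base 10 and 1.07-fold in base 2 (unadjusted p = 0.0464, adjusted p = 0.278). Every array was above 0, with the highest ratio on the array of single rats. Its promoter is shown because some metallothionein genes are switched on through metal response elements. Whether Mt3 is one of them cannot be told from these data. For their core the loose pattern TGCNCNC, with any base at N, was searched on either strand, and its matches are in capitals.
Mt3 (chr19:10856081-10856330, minus strand): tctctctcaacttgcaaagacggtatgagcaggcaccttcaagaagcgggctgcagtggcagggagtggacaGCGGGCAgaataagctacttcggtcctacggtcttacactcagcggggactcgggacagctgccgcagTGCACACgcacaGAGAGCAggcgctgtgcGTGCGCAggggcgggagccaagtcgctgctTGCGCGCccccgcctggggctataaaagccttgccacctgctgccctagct

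The pattern as searched occurred 5 times before the Mt3 start, and not every match need be a metal response element. It is a short and frequent pattern, found upstream of 45.9% of all genes in the promoter table and of 18 of the 34 genes here.

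The genes Gpx5, Gpx6, Gstm5 and Hmox2-ps1 lacked a value on array 3, and each was below 0 on arrays 1 and 2. Gpx5 read −0.25 and −0.46, Gstm5, a mu-class transferase known from testis and brain, read −0.04 and −0.55, Hmox2-ps1 read −0.36 and −0.35, and Gpx6 read −0.08 on both. Among all features without a value on array 3, the median was −0.08 on array 1 and −0.18 on array 2, and 65.7% of those with values on both lay below 0 on both. The share without an array 3 value was 9.76% of the 41 genes, against 24.3% of all features. Spot brightness is not in the table, so its part in these low ratios was not tested.

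**Figure D3:**
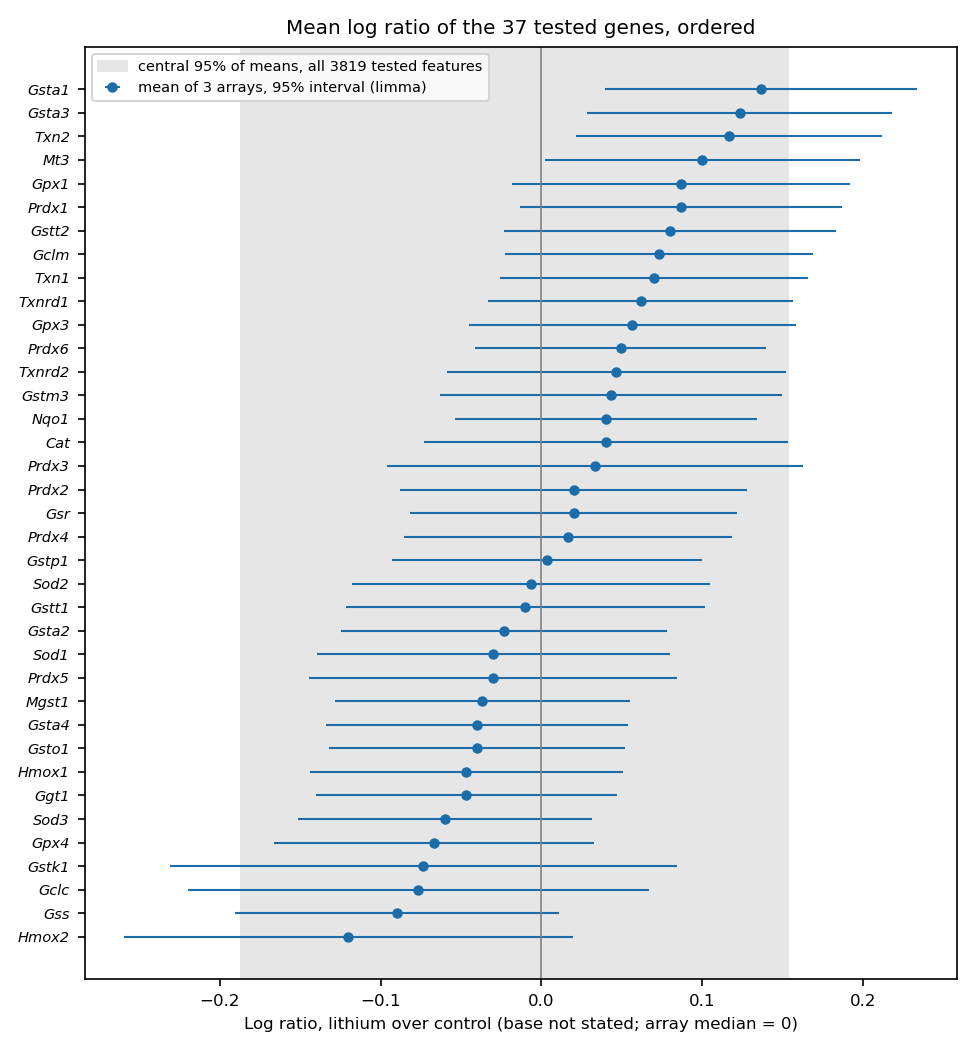
Mean log ratio of lithium over control (base not stated, array median at 0) of the 37 genes with a value on all 3 arrays, with 95% confidence intervals from limma. The grey band holds the central 95% of the means of all 3819 tested features, and all 37 means lie inside it. Only the intervals of Gsta1, Gsta3, Txn2 and Mt3 leave out 0.

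Genes around these pathways were taken as 8 lists with 134 genes, of which 70 were tested. A single one passed, Lcn2, the iron-siderophore-binding lipocalin, at 0.63, 0.36 and 0.60 on arrays 1, 2 and 3 (mean 0.53 ± 0.15, adjusted p = 0.0234). Of the 70 genes 38 had means above 0 and 30 below, with a median of 0.015, against a median of 0.013 over all tested features. Among all tested features 55.7% had means above 0 and 0.445% passed. Among 9 regulators and further targets of Nrf2, 5 were above 0 and none passed. Mafg, a small Maf partner of Nrf2, read 0.08, 0.20 and 0.14 (mean 0.14 ± 0.06, adjusted p = 0.177), and Keap1, which marks Nrf2 for degradation, read 0.06, −0.34 and 0.08 (mean −0.07 ± 0.24, adjusted p = 0.718). Nfe2l2 itself, looked up after the values were seen, read 0.11, 0.06 and 0.18 (mean 0.12 ± 0.06, adjusted p = 0.232).

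Enzymes and transporters of cysteine, methionine and the gamma-glutamyl cycle, which supply and recycle the parts of glutathione, had 10 of 12 means below 0. Of the rest 1 was above 0 and 1 at 0, and the median was −0.03. Among all 3819 tested features 1631 were below 0. The transporter genes Slc3a2, Slc3a1 and Slc7a9 were among the 10, at −0.01, −0.01 and −0.013. None of the 12 passed. Hagh, a glyoxalase that releases glutathione, was lowest at −0.15, −0.07 and −0.24 (mean −0.15 ± 0.09, adjusted p = 0.177), and Mat2a, which makes S-adenosylmethionine, was highest at 0.09 ± 0.09. Of 4 enzymes that supply NADPH, 2 were above 0 and 2 below, from Me1, the malic enzyme, at −0.14 ± 0.06 to Taldo1, transaldolase, at 0.05 ± 0.06. Among 8 glutaredoxin, thiol oxidoreductase and selenoprotein genes, 5 were above 0, 2 below and 1 at 0, from Ero1a, an endoplasmic reticulum oxidase, at −0.07 ± 0.03 to Selenop, the secreted selenium carrier, at 0.12 ± 0.06. Of a list of 11 genes drawn up for enzymes resembling glutathione transferases, 3 were tested. All 3 had means above 0, beside 55.7% of all tested features. Not all 3 encode such enzymes. The lowest was Ptgds, a prostaglandin D synthase, at 0.08 ± 0.12, and Ptges, a prostaglandin E synthase, and Alox5ap, the activating protein of 5-lipoxygenase, shared the highest mean of 0.12.

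Genes of iron and heme handling had 12 of 14 means above 0, beside 55.7% of all tested features. Their median was 0.06, and Lcn2 was the gene among them that passed. The lowest was Blvra, biliverdin reductase, at −0.07 ± 0.10. Zinc and copper genes had 5 means above 0 and 5 below. The zinc transporter gene Slc30a4 read −0.25, −0.62 and −0.12 (mean −0.33 ± 0.26, adjusted p = 0.153) and Slc31a1, the copper importer, was highest at 0.06 ± 0.06. Once the arrays were scaled to an equal spread, Slc30a4 and S100a4, a calcium-binding protein gene, passed on the lower side. Under that scaling 98 of all 3819 features passed, 35 of them higher and the rest lower, in place of 17. Oxidant-producing enzymes also had 5 means above 0 and 5 below, from Ptgs2, the inducible cyclooxygenase, at −0.15 ± 0.11 to Xdh, xanthine dehydrogenase, at 0.07 ± 0.04.

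Glutathione enzymes are abundant in the proximal tubule, which is not part of the inner medulla. Proximal tubule markers had 14 tested genes of 19 listed, 8 above 0, 5 below and 1 at 0, with medians of 0.04, 0.06 and 0.03 on arrays 1, 2 and 3. None passed, and the highest, Slc22a6, an organic anion transporter, stood at 0.20 ± 0.04 (adjusted p = 0.105). The lowest, the related transporter gene Slc22a8, read −0.08, −0.23 and −0.12 (mean −0.14 ± 0.08, adjusted p = 0.185). Of 12 collecting duct markers 11 were above 0 and 1 at 0, with a median of 0.12, beside 55.7% of all tested features above 0. Aqp3 and Krt8, at 0.0067 and 0.0033, were close to 0. Without centring the median of all tested features fell from 0.013 to −0.0067. Of the 12 markers Krt19, a keratin, and Hsd11b2, which inactivates glucocorticoids, were the 2 that passed, both higher, against 0.445% of all tested features. Red blood cells, which are rich in Prdx2 and catalase, were represented by 2 tested markers of 8 listed, with a median of 0.08. The 2 markers differed, with Hba-a1 at 0.15 and Slc4a1 at 0.02. The 9 tested macrophage and lymphocyte markers of 12 listed had a median of 0.03, and none passed. They ran from Itgam, an integrin subunit of myeloid cells, at −0.55, −0.56 and −0.05 (mean −0.39 ± 0.29, adjusted p = 0.142) to Cd4, the T cell coreceptor, at 0.16 ± 0.03 (adjusted p = 0.14). The part of cell composition in the ratios of Gsta1, Gsta3 and the other antioxidant genes was not tested.

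**Figure D4:**
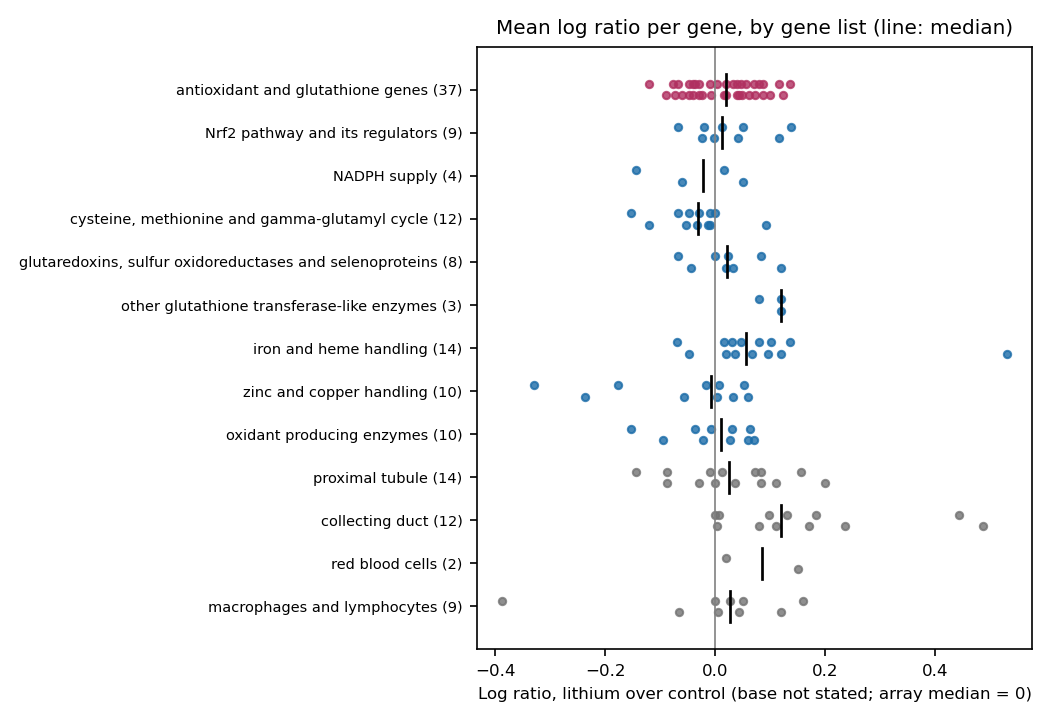
Mean log ratio of lithium over control (base not stated, array median at 0) of each tested gene, for the 37 antioxidant and glutathione genes, 8 lists of neighbouring pathways (blue) and 4 sets of cell type markers (grey), with the number tested in brackets and the median as a black line. The 37 genes span −0.12 to 0.14, and Lcn2 at 0.53 stands far from the other iron and heme genes.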

How the data were processed

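Each of 3 dual-colour arrays set inner medulla RNA of lithium-treated rats against that of controls. The deposited score of each probe is a log ratio with 2 decimals. Its base, background correction, normalization and filter on dim spots are not given in the sources used here. Column medians were −0.02, −0.04 and 0.00, so whether the ratios had been centred, and their direction and scale, stay unknown. Probes had 1 gene symbol in 5064 cases, 9 had several and the rest none listed, all by the platform's annotation, and 41 of 41 member gene IDs matched RefSeq GRCr8. Each array was centred on the median of all its probes (5582, 5682 and 4287 with a value), probes of a gene were averaged, and unnamed probes stood as themselves. The 3819 features with 3 values were fitted with an intercept in limma 3.58.1 (R 4.3.3), two-sided, with Benjamini-Hochberg adjustment at 0.05. The labels give each array its own rats.

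Members and lists were chosen with earlier results of these data known. Values on each array are given for the 10 genes above 0 and the 6 below 0 on all 3 arrays and for a fixed set of key genes, and of each pathway list for those past the threshold, with the highest and lowest mean. Other genes and markers were named after their values were seen. Alternatives changed the centring, scale, probe summary, missing values, variance model and arrays used. Python 3.11.15, pandas 2.3.3, Biopython 1.88 and matplotlib 3.10.9 served for joins, motifs and figures.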

Additional observations from a re-analysis of the deposited data

How the results depend on the processing

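None of the 37 antioxidant genes passed under 11 of 12 alternatives, where the lowest adjusted p was 0.111. Among the 4 genes with values on arrays 1 and 2 alone it was 0.0732, for Hmox2-ps1. With array weights, which gave array 1 a weight of 4.52 against 0.371 and 0.596 for arrays 2 and 3, 8 of the 37 passed (Gsta1, Gsta3, Gstt2, Prdx1, Txn1, Txn2 and Txnrd1 higher, Gpx4 lower). So did 1055 of all 3819 features, so that 21.6% of the 37 stand beside 27.6%. The count over all features, 17, became 98 with arrays scaled to the same spread, 94 with a robust prior, 40 with features on at least 2 arrays, 11 with single probes, 8 without a prior, and 0 with any array left out (172, 606 and 445 at an unadjusted p under 0.05 without array 1, 2 and 3). Genes of the neighbouring lists that passed numbered 3 with scaled arrays. The median of the 37, 0.02, was 0.00 without centring, 0.0033 centred on features with 3 values, 0.037 centred per printing block, and 0.00 to 0.025 with an array left out. Genes with the same sign on all arrays used numbered 18 without array 1, 24 without array 2 and 26 without array 3 (48.6%, 64.9% and 70.3%, against 50.0%, 63.7% and 59.1% of all features). Gstp1 read −0.017 without centring and −0.013 centred on features with 3 values, Prdx4 read −0.0033 without centring, and Sod2 read 0.0050 with scaled arrays. Array weights turned Gsr to −0.026, Prdx3 to −0.011 and Sod2 to 0.024. With an array left out, Gsr ranged from −0.015 to 0.05, Gstk1 from −0.16 to 0.02, Gstp1 from −0.015 to 0.03, Gstt1 from −0.06 to 0.03, Prdx2 from −0.025 to 0.055, Prdx3 from −0.04 to 0.08, Prdx4 from −0.005 to 0.055, Prdx5 from −0.085 to 0.01 and Sod2 from −0.04 to 0.045. Of the other 28 genes, 24 kept their sign under all 12 alternatives, and Gclc, Gsta2, Gstm3 and Sod1 had a mean of 0 with 1 array left out. The cause of these changes was not tested. No paired analysis was possible because the arrays form 1 group of direct ratios. Signal over background is not known, and the number of arrays limits the precision.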
